A study of Mus musculus with 8 samples.

Results

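The 9 imprinted genes H19, Meg3, Dlk1, Peg3, Mest, Cdkn1c, Plagl1, Ndn and Grb10 were followed across all libraries of the study, out of 54532 genes in the deposited table. They were chosen by name, as imprinted genes known for their part in growth, and all 9 were found by symbol. An imprinted gene is transcribed from the copy inherited from only one parent, and which copy that is depends on DNA methylation laid down on 1 of them in egg or sperm. H19, Meg3, Cdkn1c and Grb10 are expressed from the maternal copy and mostly restrain growth, while Dlk1, Peg3, Mest, Plagl1 and Ndn are expressed from the paternal copy. Many genes of this kind are abundant in fetal mesenchyme and fall after birth, and several are known to be expressed again in tissue under repair.

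RNA was sequenced from mouse cardiac fibroblasts sorted for PDGFRα, a receptor that marks fibroblasts, from hearts 7 days after a coronary artery had been closed. In the libraries labelled FTbR2KO (4 samples), fibroblasts were to have lost TbR2, the TGF-β type 2 receptor encoded by Tgfbr2, and the TbR2fl/fl libraries (4 samples) came from controls that carry the floxed gene. Mice of both groups had been given tamoxifen, cells were not cultured, and the driver of the recombinase and the age of the mice are not given in the labels. The labels do not state that the samples of a group are different animals, and p-values therefore measure only how far these samples spread, which may in part be technical.

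The level unit throughout is FPKM, a read level per length of the gene and depth of the library, as the authors computed it. The reads recovered from these values came to 16.1 to 22.9 M per FTbR2KO library and 21.2 to 28.7 M per control. Tgfbr2 itself stood at 56.9 to 60.0 FPKM in the libraries labelled FTbR2KO and at 40.3 to 49.6 FPKM in the controls. It was thus higher in every library labelled as its knockout, and a value summed over the whole gene cannot show whether a floxed exon was lost. Every direction given here rests on those labels. Pdgfra was present at 45.5 to 85.6 FPKM, and Ptprc, the marker of leukocytes, was at most 0.0346 FPKM. FTbR2KO 4 and TbR2fl/fl 8 stood apart in sex-linked transcripts, with Xist at 0.0561 and 0.0215 FPKM against 30.7 to 49.7 FPKM in the other 6 libraries, and Ddx3y at 15.6 and 14.2 FPKM against at most 0.0470 FPKM.

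H19 was the one gene of the 9 whose groups did not overlap: its level in the FTbR2KO libraries was 0.540 times that of the controls. The other 7 genes that could be tested, Meg3, Cdkn1c, Grb10, Peg3, Mest, Plagl1 and Ndn, overlapped between the groups, and Dlk1 was close to absent. Across all tested genes the H19 difference did not pass the adjusted threshold, so it is given as a difference in these libraries that failed the correction for multiple tests.

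Sequences are shown for the places in which these genes carry more than their own transcript. The H19 transcript is also the precursor of a microRNA whose arms lie in exon 1 of its longest annotated transcript, in 3 of its 7 annotated transcripts, at chr7:142577112-142577133 for the 5p arm and chr7:142577078-142577099 for the 3p arm on the minus strand (RefSeq, GRCm38.p6). Both are printed 5′ to 3′ with the seed, bases 2 to 8, in capitals.
miR-675-5p: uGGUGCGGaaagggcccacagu
miR-675-3p: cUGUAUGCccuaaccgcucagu
The 2 seeds differ, so the arms belong to no common seed group. The microRNA's own gene entry, Mir675, was listed at 0 in all 8 libraries, and libraries made from poly(A) RNA do not measure mature microRNAs.

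Promoter windows in RefSeq (GRCm38.p6), from 250 bases before to 50 bases after a gene's start, were found for 7 of the 9 genes, in 11 windows. None was found for H19 or Cdkn1c. They were searched on both strands for TGCCGC, the letters that the zinc finger protein ZFP57 reads when they are methylated, with no other motif searched. The motif or its reverse complement GCGGCA stood in 5 of the 11 windows, belonging to Meg3, Plagl1, Mest and Grb10, and in 11.6% of all 32851 windows of 300 bases. The 2 Mest windows among the 5 start 3 bases apart and hold the same motifs, so the same motifs are counted in both. The motif itself contains a CpG, a C followed by a G. The 5 windows with it held 13 to 45 CpG and the others 1 to 13, against a median of 7 over all windows. The 11.6% is not matched for base composition, so no enrichment is read from these counts. The bases before the start are printed for Meg3, Plagl1 and Mest, each on the plus strand and with the motif in capitals, since these are the members whose motif lies ahead of the start. The Plagl1 stretch ends where annotated untranslated sequence of another transcript begins.
Meg3, chr12:109540746-109540995: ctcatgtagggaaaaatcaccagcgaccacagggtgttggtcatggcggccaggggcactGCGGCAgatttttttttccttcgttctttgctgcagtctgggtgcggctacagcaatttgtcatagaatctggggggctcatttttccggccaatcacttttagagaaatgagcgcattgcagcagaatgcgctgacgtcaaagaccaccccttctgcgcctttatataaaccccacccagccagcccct
Plagl1, chr10:13090582-13090787: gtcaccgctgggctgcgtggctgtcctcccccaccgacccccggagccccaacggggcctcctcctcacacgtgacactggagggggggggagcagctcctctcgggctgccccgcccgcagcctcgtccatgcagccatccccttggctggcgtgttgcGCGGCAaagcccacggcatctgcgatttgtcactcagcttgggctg
Mest, chr6:30737800-30738049: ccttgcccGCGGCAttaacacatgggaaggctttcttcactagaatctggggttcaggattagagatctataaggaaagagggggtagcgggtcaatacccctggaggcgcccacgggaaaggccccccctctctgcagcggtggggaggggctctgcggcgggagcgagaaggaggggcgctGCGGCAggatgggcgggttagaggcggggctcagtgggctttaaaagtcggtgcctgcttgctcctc
The motif began 190 bases before the start in Meg3, 90 bases before it in Plagl1, and 242 and 67 bases before it in Mest. A match describes the letters of the window and does not show that a protein binds there, and FPKM does not separate the parental copies. Methylation was not analysed here.

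**Figure D1:**
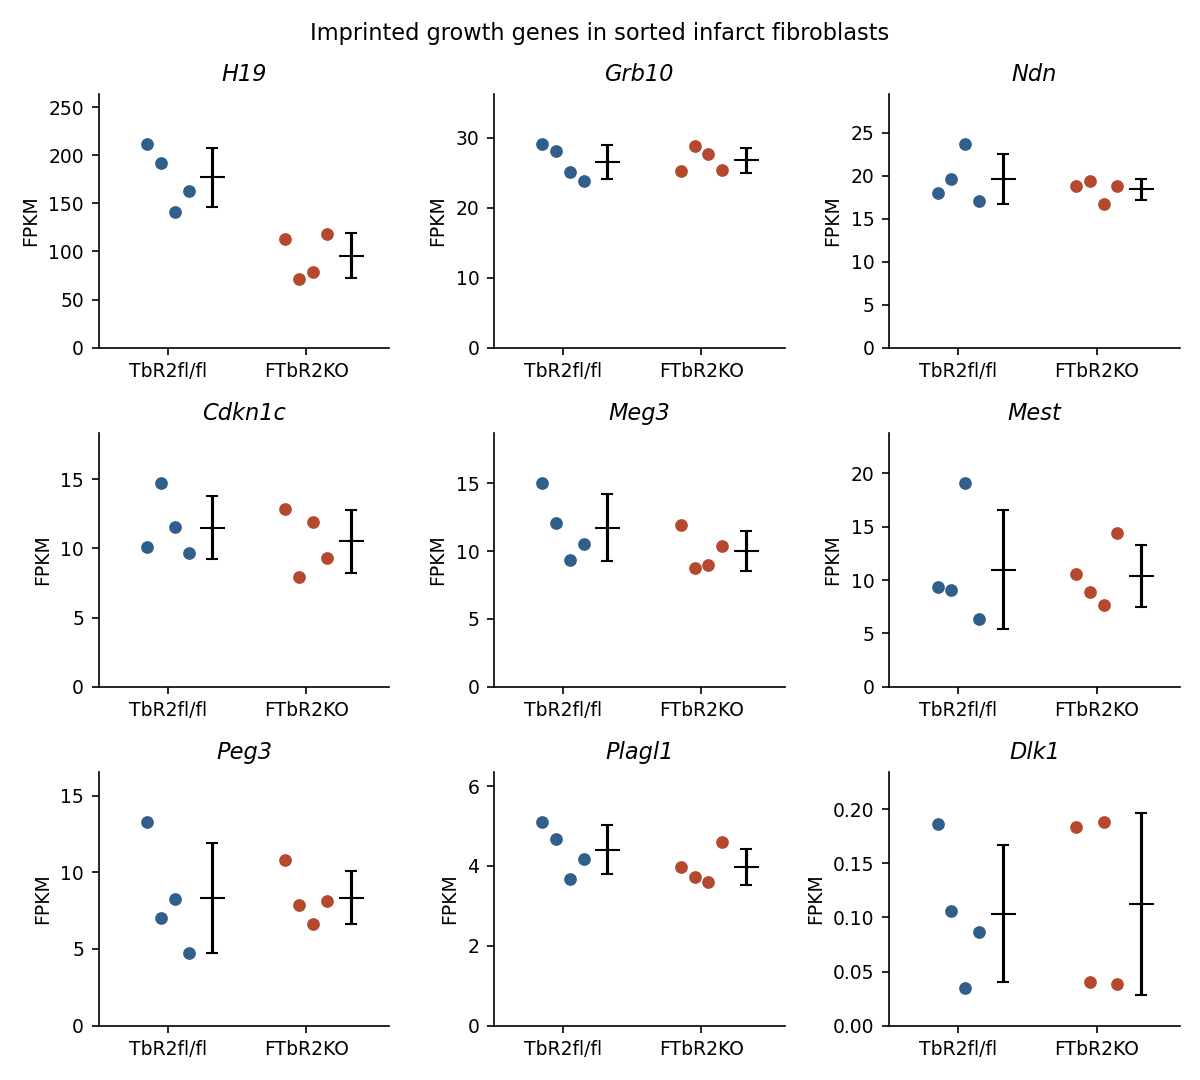
FPKM of each of the 9 genes (vertical axes, each starting at 0) in the 4 TbR2fl/fl (blue) and 4 FTbR2KO (red) libraries, with the mean and SD of each group in black. The H19 points of the FTbR2KO libraries, 71.8 to 118.0 FPKM, all lie below those of the controls, 141.3 to 211.3 FPKM, while the groups overlap for the other 8 genes.

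By level, H19 led the group with a mean of 136.1 FPKM over all 8 libraries, above 97.8% of the 11667 tested genes. Grb10 followed at 26.7 FPKM and Ndn at 19.02 FPKM. Cdkn1c (11.0 FPKM), Meg3 (10.9), Mest (10.7) and Peg3 (8.34) came next, then Plagl1 at 4.19 FPKM and Dlk1 at 0.108 FPKM. The ranges of neighbours in this order did not overlap from H19 to Grb10, from Grb10 to Ndn, from Ndn to Cdkn1c and from Plagl1 to Dlk1. From Cdkn1c down to Plagl1 each gene's range overlapped that of the next, so no order is read between neighbours there, although the highest Plagl1 value (5.09 FPKM) lay below the lowest of Cdkn1c (7.96), Meg3 (8.73) and Mest (6.39). Spread between libraries differed as well. The coefficient of variation over all 8 libraries was 7.48% for Grb10, 11.3% for Ndn and 13.1% for Plagl1, but 31.4% for Peg3 and 38.7% for Mest.

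Of the 9 genes, 8 reached 1 FPKM in 4 or more libraries and entered the whole-table comparison by limma on log2(FPKM + 1); these 8 were above 1 FPKM in every library, the lowest value being 3.605 for Plagl1. None of the 8 passed an adjusted p of 0.05, against 0.0171% of all tested genes (2 of 11667, Gpt2 and Prm1, named here for completeness after their values were seen, and both higher in FTbR2KO). At an unadjusted p of 0.05, 1 of the 8 passed (H19), against 8.61% of all tested genes. The groups did not overlap for 1 of the 8, against 4.41% of tested genes in either direction and 1.89% with FTbR2KO lower. The log2 fold change, FTbR2KO against TbR2fl/fl, was below 0 for 6 and above 0 for 2 of the 8, with a median of -0.10. Over all tested genes it was below 0 for 5973 and above 0 for 5694, with a median of -0.0045.

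**Figure D2:**
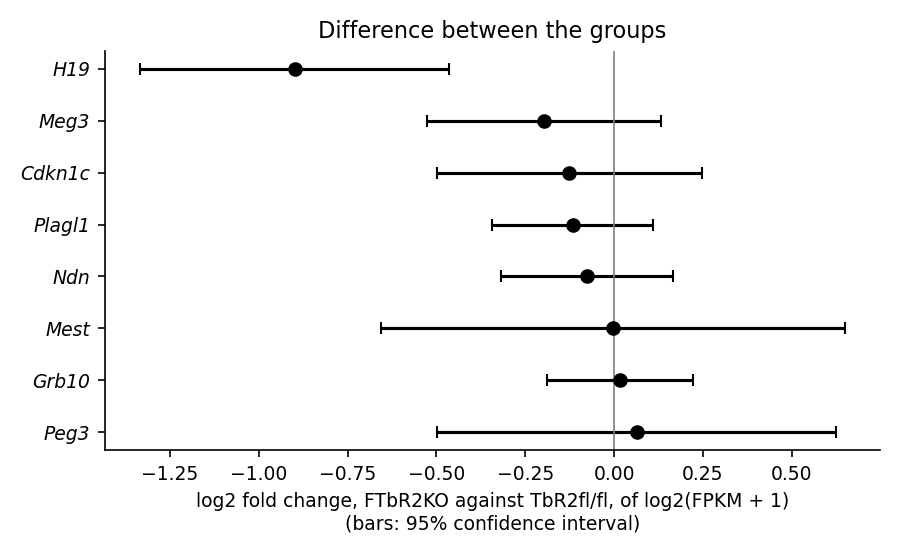
Log2 fold change of log2(FPKM + 1), FTbR2KO against TbR2fl/fl (horizontal axis), for the 8 tested genes, with bars for the 95% confidence interval of the limma estimate. The interval of H19, -1.33 to -0.46, lies below 0, and the intervals of the other 7 genes include 0.

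H19, a long noncoding RNA of the maternal chromosome, lies at chr7:142575529-142578143 on the minus strand (ENSMUSG00000000031, GRCm38, a lincRNA in the table). Its levels in the FTbR2KO libraries 1 to 4 were 112.9, 71.8, 79.0 and 118.0 FPKM, and in the control libraries 5 to 8 they were 211.3, 191.7, 141.3 and 163.1 FPKM. All 4 FTbR2KO values were below all 4 control values, with a gap from 118.0 to 141.3 FPKM between the groups. The means were 95.4 ± 23.4 FPKM (SD, n = 4) and 176.8 ± 30.9 FPKM (SD, n = 4), a level 46.0% lower. The values rested on 18367 reads in the FTbR2KO and 47127 reads in the control libraries, so counting error was small beside the spread between libraries. The log2 fold change was -0.90 (SE 0.19, 95% interval -1.33 to -0.46, unadjusted p = 0.00112, adjusted p = 0.571 by limma). An exact two-sided permutation test of the mean FPKM gave p = 0.0286, the smallest value that 4 against 4 samples allow. Any gene whose groups do not overlap has this p, so it restates the gap and adds nothing to it. On the scale of log2(FPKM + 1), H19 had the 14th lowest log2 fold change of the 11667 tested genes. That scale understates changes of low genes, so a low gene with a smaller ratio can rank behind H19. In these sorted but bulk samples, fewer cells that express a gene and less of its RNA per cell cannot be told apart.

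Over the 18 alternatives the H19 log2 fold change lay between -1.04 and -0.78. Without FTbR2KO 4 and TbR2fl/fl 8, the libraries with Y-linked transcripts, the log2 fold change was -1.04 (SE 0.22), and with Xist as a covariate it was -0.90 (SE 0.20). Leaving out FTbR2KO 1 and TbR2fl/fl 5, which an earlier analysis of these files had set apart from the rest, gave -0.90 (SE 0.20). Its adjusted p ranged from 0.181 to 0.959 over 18 alternatives and passed the threshold in none.

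GC content moved with the group difference across the whole table, and so it is given beside H19. In 10 equal bins of the tested genes ordered by the GC content of their longest transcript, the median log2 fold change fell from 0.081 in the lowest bin to -0.12 in the highest. H19 had 55.8% GC, in the ninth bin, whose median was -0.087. After a correction of each library for GC content and gene length, chosen after the data had been seen, the log2 fold change of H19 was -0.81 (SE 0.20, adjusted p = 0.897 by limma). The part of GC content in the H19 difference was not tested beyond this.

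**Figure D3:**
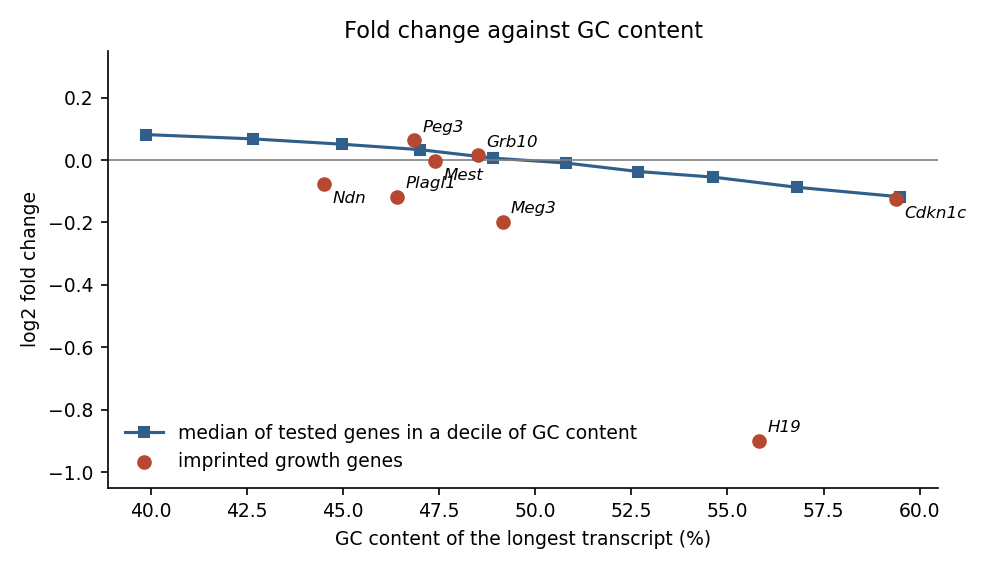
Log2 fold change, FTbR2KO against TbR2fl/fl (vertical axis), against GC content of the longest transcript in percent (horizontal axis), for the 8 tested imprinted genes (red points) and as the median of all tested genes in each of 10 bins of GC content (blue line). H19 lies at -0.90, below the median of -0.087 in its bin, whereas Cdkn1c at -0.13 lies near the median of its bin, -0.12.

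Markers of other cell types were summed in each library to set beside the H19 difference. The 10 epicardial and mesothelial markers summed to 76.9 to 124.7 FPKM in FTbR2KO and 48.4 to 93.8 FPKM in control libraries. All 9 that could be tested had a log2 fold change above 0 and none passed the adjusted threshold. At an unadjusted p of 0.05 there was 1 of the 9 (Aldh1a2, a retinoic acid enzyme, 0.61, SE 0.24), beside 8.61% of all tested genes. The sums overlapped between the groups for leukocyte markers (8.45 to 12.6 against 10.4 to 13.2 FPKM), endothelial markers (20.4 to 26.9 against 19.8 to 29.4, of which only Tek was tested), mural markers (52.9 to 83.1 against 53.6 to 71.7, all 7 tested above 0 with a median log2 fold change of 0.11) and cardiomyocyte markers (2.77 to 5.86 against 4.05 to 6.46). Schwann cell markers summed to 8.44 to 9.36 against 6.15 to 8.69 FPKM, with both tested ones above 0. The 12 fibroblast markers summed to 14167 to 16827 against 15088 to 20509 FPKM. These sums and those of the epicardial and mesothelial markers overlapped between the groups as well. Of the fibroblast markers, all tested, 7 had a log2 fold change above 0 and 5 below, with a median of 0.02. Among those below, the collagen genes Col1a1 and Col1a2 were, like H19, below all controls in every FTbR2KO library. Their log2 fold changes were -0.35 and -0.30 (SE 0.14 and 0.13, adjusted p = 0.571 and 0.581 by limma). These 2 of the 12 stood beside 1.89% of all tested genes with FTbR2KO lower and no overlap. The part of these cell types in the H19 difference was not tested.

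Estimates for the genes around H19 were smaller than its own. Within 1 Mb of it, 17 other genes were tested, and their log2 fold changes lay between -0.53 and 0.19. For none of them did the groups not overlap, beside 4.41% of all tested genes, a share too small for 17 genes to be set against. Below 0 were 15 of the 17, beside 5973 of all 11667 tested genes. That count is not matched for GC content. Over all tested genes, 23.5% lay below 0 in the lowest bin of GC content and 80.5% in the highest. No shared direction of the region is therefore read from it. The ends of this range, named after their values were seen, were Prr33 (-0.53, SE 0.29) and Dusp8, a phosphatase gene (0.19, SE 0.17). Igf2, the paternally expressed growth factor that shares its enhancers with H19, stood at 0.0171 to 0.117 FPKM with 30 reads in FTbR2KO and 49 in control libraries, and so was too low to test. The nearest tested gene, Mrpl23 of the mitochondrial ribosome, had a log2 fold change of -0.19 (SE 0.094).

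**Figure D4:**
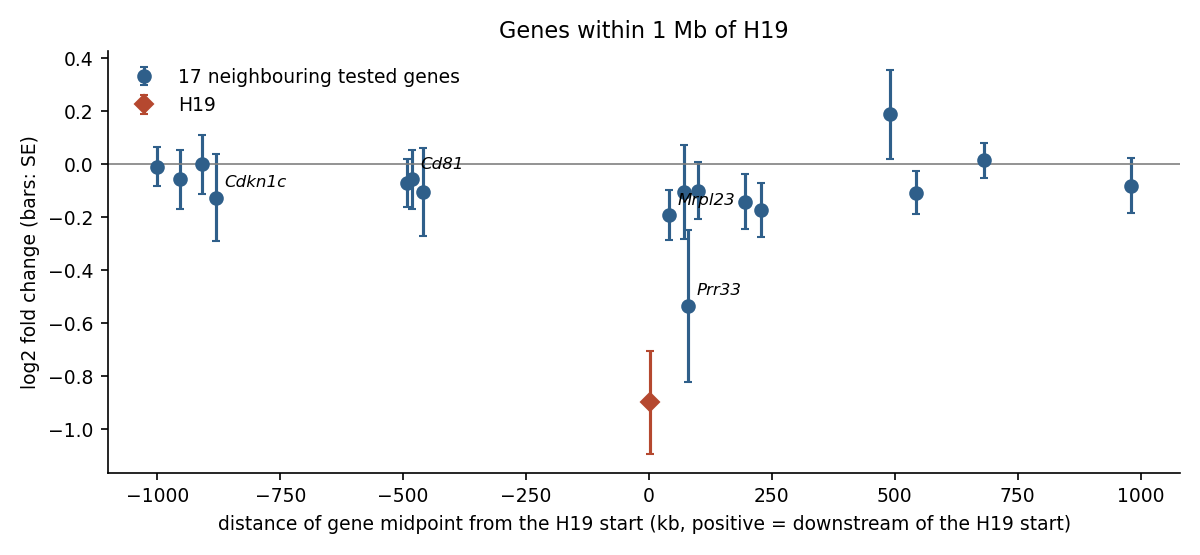
Log2 fold change with its SE, FTbR2KO against TbR2fl/fl (vertical axis), of H19 (red) and the 17 other tested genes within 1 Mb, by the distance of the gene's midpoint from the H19 start in kb (horizontal axis, positive in the direction of H19 transcription). H19 lies at -0.90 and its neighbours between -0.53 and 0.19.

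Meg3, the other maternally expressed long noncoding RNA, lies at chr12:109541001-109571726 on the plus strand. It stood at 11.95, 8.73, 8.98 and 10.4 FPKM in FTbR2KO 1 to 4 and at 14.99, 12.05, 9.31 and 10.5 FPKM in the controls 5 to 8. Only FTbR2KO 2 and 3 lay below all controls, and the means, 10.01 ± 1.48 and 11.7 ± 2.46 FPKM (SD, n = 4 each), differed by less than 1 SD of the controls. The log2 fold change was -0.20 (SE 0.15, 95% interval -0.53 to 0.13, adjusted p = 0.716 by limma), and on the ratio scale of FPKM + 1 the interval ran from 0.694 to 1.09. Without TbR2fl/fl 5 it was -0.081 (SE 0.13), and with the GC correction -0.32 (SE 0.13, unadjusted p = 0.0427, adjusted p = 0.897 by limma). Rian, a further noncoding RNA of the same imprinted cluster, stood at 6.54 ± 0.733 and 6.55 ± 0.771 FPKM (SD, n = 4 each), with a log2 fold change of 0.0003 (SE 0.10). Mirg, the precursor of many microRNAs at the far end of that cluster, was below 1 FPKM in every library (0.389 to 0.660). Whether counting kept the strand is not known from the labels, and Meg3 overlaps a gene of the opposite strand, Gm26906, which was listed at 0 throughout.

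Dlk1, the paternally expressed gene of the Meg3 cluster and a membrane protein that holds back adipocyte differentiation, lies at chr12:109452823-109463336 on the plus strand. It reached 0.188 FPKM at most and did not enter the whole-table comparison. Its values were 0.183, 0.0407, 0.188 and 0.0387 FPKM in FTbR2KO and 0.187, 0.106, 0.0346 and 0.0869 FPKM in the controls, on 48 and 66 reads in all. The groups overlapped, and an exact two-sided permutation test gave p = 0.80. At 4 to 31 reads a library, a moderate difference could not be detected for this gene.

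Cdkn1c encodes p57, an inhibitor of cyclin-dependent kinases that stops the cell cycle, and lies on the same chromosome as H19 at chr7:143458339-143461050 on the minus strand. It stood at 12.9, 7.96, 11.9 and 9.32 FPKM in FTbR2KO and at 10.1, 14.7, 11.6 and 9.70 FPKM in the controls, with 2 FTbR2KO libraries below all controls. The means were 10.5 ± 2.27 and 11.5 ± 2.28 FPKM (SD, n = 4 each), a log2 fold change of -0.13 (SE 0.17, 95% interval -0.50 to 0.25, adjusted p = 0.845 by limma). With 59.4% GC it lay in the highest bin, and after the GC correction its log2 fold change was 0.0056 (SE 0.16), so no direction is read.

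Beside Cdkn1c were set 6 other genes for inhibitors of cyclin-dependent kinases, which are not imprinted. Of these 6, all tested, 5 had a log2 fold change below 0 and 1 above, with a median of -0.092, and none passed the adjusted threshold by limma. At an unadjusted p of 0.05 there was 1 of the 6, beside 8.61% of all tested genes. It was Cdkn2a, at 1.78 ± 0.456 against 2.45 ± 0.251 FPKM (SD, n = 4 each), with a log2 fold change of -0.32 (SE 0.12, adjusted p = 0.571 by limma). Cdkn1a, the p21 gene, had a log2 fold change of 0.20 (SE 0.16). Genes of proliferating cells were spread to both sides, with 8 of the 14 tested above 0 and 6 below, and the antigen gene Mki67 at 0.35 (SE 0.30).

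Grb10 encodes an adaptor that binds and dampens the insulin and IGF1 receptors, and lies at chr11:11930508-12038683 on the minus strand. It was the steadiest of the 9 genes, at 25.2, 28.8, 27.7 and 25.3 FPKM in FTbR2KO and 29.1, 28.1, 25.1 and 23.9 FPKM in the controls. The means were 26.8 ± 1.78 and 26.5 ± 2.46 FPKM (SD, n = 4 each). Limma put the log2 fold change at 0.02 (SE 0.091, adjusted p = 0.973), with an interval of -0.19 to 0.22, or 0.877 to 1.17 on the ratio scale. This was the narrowest interval among the 8 tested genes.

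The pathway that Grb10 acts on was measured in the same fit. Of 20 genes of IGF and insulin signalling 19 were tested, 11 above and 8 below 0 with a median of 0.061, and none passed the adjusted threshold by limma, while 3 higher and 1 lower had an unadjusted p under 0.05, or 4 of 19 beside 8.61% of all tested genes. The higher ones were the binding protein Igfbp5 (68.7 ± 27.1 against 34.6 ± 5.02 FPKM, SD, n = 4 each; log2 fold change 0.87, SE 0.31), the ligand Igf1 (0.25, SE 0.11) and the PI3-kinase subunit Pik3r1 (0.18, SE 0.076). The lower one was the adaptor Shc1 (-0.17, SE 0.070), the 1 gene of the 19 whose groups did not overlap, beside 4.41% of all tested genes. Igf2r, a maternally expressed receptor that clears IGF2, stood at 62.7 ± 7.81 and 59.8 ± 3.94 FPKM (SD, n = 4 each), a log2 fold change of 0.06 (SE 0.11).

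Peg3, a paternally expressed zinc finger gene, lies at chr7:6703892-6730431 on the minus strand. It stood at 10.8, 7.89, 6.62 and 8.12 FPKM in FTbR2KO and at 13.3, 7.04, 8.26 and 4.76 FPKM in the controls. The controls held both the highest and the lowest value, and the means were 8.35 ± 1.75 and 8.33 ± 3.59 FPKM (SD, n = 4 each). Its log2 fold change was 0.06 (SE 0.25, 95% interval -0.50 to 0.62, adjusted p = 0.957 by limma), and it was -0.14 without FTbR2KO 4 and TbR2fl/fl 8.

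Mest, a paternally expressed gene for a hydrolase-like membrane protein, lies at chr6:30723547-30748465 on the plus strand. It stood at 10.6, 8.90, 7.66 and 14.4 FPKM in FTbR2KO and at 9.39, 9.03, 19.1 and 6.39 FPKM in the controls. TbR2fl/fl 7 was the highest library and TbR2fl/fl 8 the lowest, and the means were 10.4 ± 2.93 and 11.0 ± 5.57 FPKM (SD, n = 4 each). The log2 fold change was -0.0045 (SE 0.29, 95% interval -0.66 to 0.65, adjusted p = 0.997 by limma), and without TbR2fl/fl 7 it was 0.28 (SE 0.20). Mest overlaps the gene Copg2 on the opposite strand, at 5.09 to 6.00 FPKM, and reads of the shared stretch cannot be assigned without the strand.

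Plagl1, a paternally expressed zinc finger factor known as a regulator of other imprinted genes including H19, lies at chr10:13060504-13131694 on the plus strand. It stood at 3.97, 3.72, 3.605 and 4.61 FPKM in FTbR2KO and at 5.09, 4.67, 3.68 and 4.18 FPKM in the controls, with 1 FTbR2KO library below all controls. The means were 3.97 ± 0.449 and 4.41 ± 0.611 FPKM (SD, n = 4 each), a log2 fold change of -0.12 (SE 0.10, 95% interval -0.34 to 0.11, adjusted p = 0.751 by limma).

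Ndn encodes necdin, a protein that restrains cell division, and lies at chr7:62346569-62350262 on the plus strand. It stood at 18.8, 19.4, 16.7 and 18.8 FPKM in FTbR2KO and at 18.1, 19.6, 23.7 and 17.1 FPKM in the controls. The groups overlapped, with TbR2fl/fl 7 above the other 7 libraries, and the means were 18.4 ± 1.20 and 19.6 ± 2.91 FPKM (SD, n = 4 each). Its log2 fold change was -0.08 (SE 0.11, 95% interval -0.32 to 0.17, adjusted p = 0.857 by limma), and without TbR2fl/fl 7 it was 0.01 (SE 0.091).

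Imprinted genes beyond these 9 were counted from 2 lists of 20. Of the paternally expressed ones 10 were tested, 5 above and 5 below 0 with a median log2 fold change of 0.02, and of the maternally expressed ones 9 were tested, 6 above and 3 below 0 with a median of 0.0045. None passed the adjusted threshold by limma. An unadjusted p under 0.05 was found for 1 of the 10 and 1 of the 9, beside 8.61% of all tested genes, in both cases with FTbR2KO higher. The paternal one was Peg10, a retrotransposon-derived gene, at 2.76, 3.00, 3.96 and 2.28 FPKM in FTbR2KO and 1.62, 1.93, 2.12 and 1.82 FPKM in the controls. All 4 FTbR2KO values of Peg10 lay above all controls, opposite in direction to H19, with a log2 fold change of 0.46 (SE 0.13, unadjusted p = 0.00482, adjusted p = 0.571 by limma). The maternal one was Phactr2, a regulator of actin and phosphatase 1 (0.23, SE 0.088). Of 2 further paternally expressed genes, Sgce was at 0.05 (SE 0.11) and Snrpn at -0.04 (SE 0.11) on the log2 fold scale. Ube3a, a ubiquitin ligase gene listed as maternally expressed because of its imprinting in neurons, did not overlap between the groups (2.44 ± 0.228 against 2.09 ± 0.0717 FPKM, SD, n = 4 each). Peg10 and Ube3a were the 1 gene of each list whose groups did not overlap, beside 4.41% of all tested genes.

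Transcripts of 16 genes for factors of imprint maintenance and of DNA methylation, among them the Dnmt and Tet enzymes, were all in the table. Of these 12 were tested, 8 above and 4 below 0 with a median log2 fold change of 0.02 and none past the adjusted threshold by limma. The list is mixed, and its counts are not those of imprint-keeping factors alone. Smchd1, a chromatin protein that holds some imprinted clusters silent, had 2.45 ± 0.149 against 2.03 ± 0.204 FPKM (SD, n = 4 each), a log2 fold change of 0.19 (SE 0.079, unadjusted p = 0.0403), and was the 1 gene of the list under an unadjusted p of 0.05. Ctcf, which binds the control region between H19 and Igf2, had 13.3 ± 0.354 against 12.01 ± 0.614 FPKM (SD, n = 4 each), a log2 fold change of 0.14 (SE 0.067, adjusted p = 0.598 by limma). The groups did not overlap for Smchd1 and for Ctcf, 2 of the 12 beside 4.41% of all tested genes. The 1 of 12 under an unadjusted p of 0.05 by limma stood beside 8.61% of all tested genes. Zfp57, whose letters were searched in the promoters, was at -0.16 (SE 0.14) on the log2 fold scale, its partner Trim28 at -0.0092 (SE 0.10), and the histone methyltransferase gene Ehmt2 at -0.17 (SE 0.088).

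The 9 genes also varied from library to library within the groups. Over all pairs of the 8 tested genes, 28 in all, none had a correlation of log2(FPKM + 1) across the 8 libraries that passed an adjusted p of 0.05 and 4 had an unadjusted permutation p under 0.05. Meg3 and Plagl1 gave Pearson's r = 0.847 (exact permutation p = 0.00769, adjusted p = 0.163) and Spearman's rho = 0.833 (p = 0.0154, adjusted p = 0.215), and r was 0.675 without FTbR2KO 2 and TbR2fl/fl 5. Mest and Ndn gave r = 0.835 (exact permutation p = 0.0116, adjusted p = 0.163) and rho = 0.619 (p = 0.115, adjusted p = 0.644), and r was 0.698 without FTbR2KO 4 and TbR2fl/fl 7. Over the remaining 6 libraries the exact permutation p of r was 0.167 and 0.115.

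The other 2 pairs were H19 with Meg3 and H19 with Plagl1. Because the groups do not overlap for H19, no r over all 8 libraries is given for these 2 pairs. Their unadjusted permutation p, counted above, came from all 8 libraries and so includes the difference between the groups. Without FTbR2KO 2 and TbR2fl/fl 5 the exact permutation p of r was 0.256 and 0.194, which includes that difference too. Over the deviations from each group's mean, given as a description with no test, Pearson's r was 0.873 for H19 with Meg3 and 0.872 for H19 with Plagl1. These pairs had been picked by their p over all 8 libraries. An r within 4 libraries is unstable: for H19 with Grb10 it was -0.992 within FTbR2KO and 0.846 within the controls. Within the controls, TbR2fl/fl 5 had the highest and TbR2fl/fl 7 the lowest level of H19, Meg3 and Plagl1 alike. Within FTbR2KO, libraries 2 and 3 were below 1 and 4 in H19 and in Meg3, as they were in Plagl1.

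**Figure D5:**
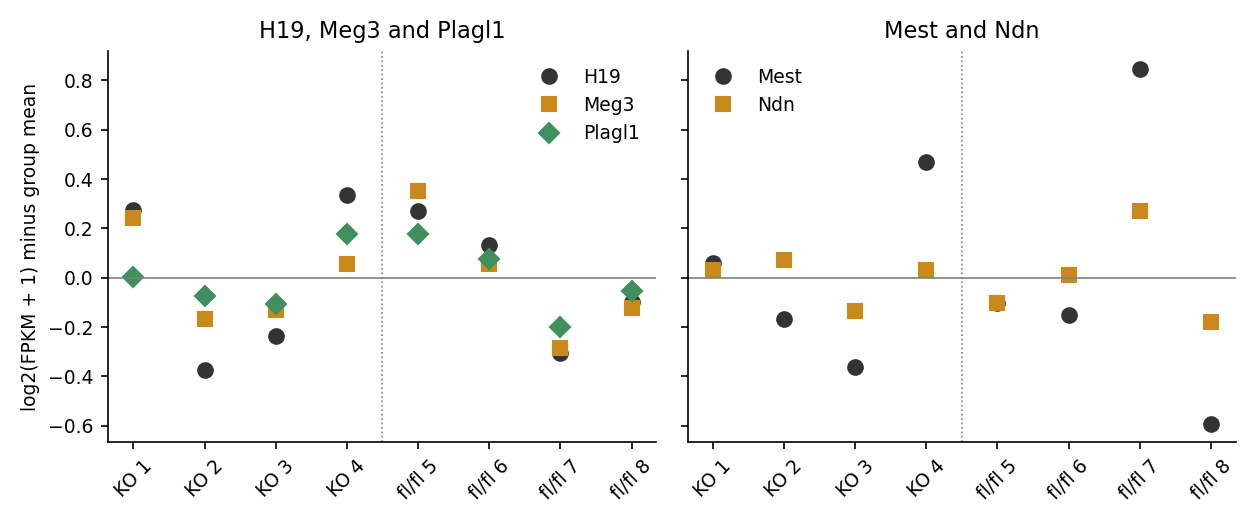
Log2(FPKM + 1) minus the mean of the library's own group (vertical axis) in each of the 8 libraries (horizontal axis, FTbR2KO 1 to 4 left and TbR2fl/fl 5 to 8 right of the dotted line), for H19, Meg3 and Plagl1 on the left and Mest and Ndn on the right. H19, Meg3 and Plagl1 are all highest in TbR2fl/fl 5 and lowest in TbR2fl/fl 7 among the controls, and Mest and Ndn are both highest in TbR2fl/fl 7 there.

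The genes most like each member across the 8 libraries were sought by Pearson's r among 5976 other genes with a mean of at least 5 FPKM. These are descriptions with no test, and all genes of a library share its depth and any bias in base composition. For H19 the measure includes the difference between the groups. Each r given is among the highest of its search. With 5976 genes and only 8 libraries, such a search can return a high r by selection alone. No link between genes is therefore read from these values. H19 was followed most closely by Cc2d1a (r = 0.978), Pabpn1 (0.963) and Sirt6 (0.959), whose transcripts have 56.6% to 59.8% GC, near the 55.8% of H19. Meg3, with 49.2% GC, was followed by Tcea3 (0.957), Foxo4 (0.947) and Zfp512b (0.947), with 54.5% to 55.6% GC, and Plagl1 by Ndst2 (0.937), Rnf144a (0.926) and Plekhf1 (0.917). Mest was closest to Gata4, a cardiac transcription factor (0.973), then Adamtsl4 (0.950) and Pja1 (0.937). Ndn was close to Calhm2 (0.970) and the growth factor Bmp4 (0.967). Grb10 was closest to the endothelin receptor Ednra (0.947), the matrix protein gene Thbs2 (0.902) and Fbxl7 (0.875). Peg3 followed Washc2 (0.993), Zkscan17 (0.970) and Parp12 (0.967), and Cdkn1c followed Hfe (0.912), Rrad (0.875) and Ndrg2 (0.864).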

How the data were processed

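PDGFRα-sorted infarct fibroblasts of 4 FTbR2KO and 4 TbR2fl/fl samples were measured. The deposited table holds the authors' gene-level FPKM and, per the file headers, each gene's biotype, length and coordinates. Tools listed in the submitters' processing notes, without their roles, are HTSeq 0.6.1, Cufflinks 2.1.1, TopHat2 2.0 and CASAVA; builds listed are GRCm38.p6 and mm10. The strand setting and the annotation behind the FPKM are not given in the labels. FPKM times gene length gave whole reads for 100% of values (within 0.01); these recovered reads give the depth and 1 alternative, in which 2 genes were called. No 2 libraries of a group agreed within sampling noise (smallest chi-square per degree of freedom 13.9).

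The 11667 genes that reached 1 FPKM in 4 or more samples were compared on log2(FPKM + 1), which understates changes of low genes, with limma 3.58.1 (R 4.3.3, trended empirical Bayes, no covariate, two-sided) and Benjamini-Hochberg adjustment over all of them, at a threshold of 0.05. Single genes were also compared by exact permutation over 70 regroupings (SciPy 1.17.1, Python 3.11.15). The 9 genes and all gene lists were chosen with earlier results of these data known. The genes named are the 9, up to 4 of each list with the smallest p and a short list named whatever its values, plus the 3 genes most correlated with each of the 8 tested ones, of which 1 is not reported here; genes near H19 outside this rule are said to be so. Reads were simulated for this comparison over a mean of 11485 genes with 200 changed. In them the test recovered 45.6% of 1.5-fold, 74.1% of 2-fold and 98.4% of 4-fold changes. Genes were drawn as independent and without the shift with GC content. With 200 true changes the adjustment is less strict than where 2 genes are called. These shares can therefore overstate what would be recovered in the measured libraries. GC content came from matching transcripts for 99.9% of tested genes. Alternatives were another pseudocount, filter, scaling or test, an Xist covariate and samples left out; the GC correction and leaving out FTbR2KO 4 with TbR2fl/fl 8 were added after seeing the data. Gene coordinates are those of the deposited table and equal those of GENCODE M21.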

Additional observations from a re-analysis of the deposited data

How the results depend on the processing

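None of the members tested passed the adjusted threshold in any of the 18 alternatives (limma, or limma-voom on recovered reads): 8 were tested in most, 7 with the stricter filter, and 9 without a filter, the only setting that tested Dlk1. Among all tested genes 2 were called in the comparison reported; 1 was called with a filter of at least 5 FPKM, where fewer genes were tested, 4 without FTbR2KO 4 and TbR2fl/fl 8, and 2 to 8 with single samples left out (8 without FTbR2KO 4, of which 6 higher and 2 lower); the cause was not tested. H19 kept its direction in all 18, with a log2 fold change of -1.04 to -0.78 (-0.80 with quantile normalization, -0.88 with voom, -1.01 to -0.78 with single samples left out). Meg3 (-0.32 to -0.081, the latter without TbR2fl/fl 5) and Plagl1 (-0.20 to -0.058, the latter without TbR2fl/fl 5, 17 alternatives, since the stricter filter removed it) also kept theirs. The other 5 tested genes changed sign. Peg3 was -0.14 without FTbR2KO 4 and TbR2fl/fl 8, -0.044 with the GC correction and -0.14 to 0.29 with single samples left out. Mest was 0.000595 with a pseudocount of 0.1, 0.0097 with quantile normalization, 0.049 with voom and -0.20 to 0.28 with single samples left out. Cdkn1c was 0.0056 with the GC correction. Ndn was -0.14 to 0.014 with single samples left out. Grb10 was -0.0072 without FTbR2KO 4 and TbR2fl/fl 8, -0.054 with the GC correction and -0.032 to 0.060 with single samples left out. The cause of these changes of sign was not tested. No paired analysis was run because the labels give no pairing of samples between the groups. Depth limits what can be said of Dlk1, and 4 samples a group allow no permutation p under 0.0286.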
